A study of Mus musculus with 12 samples.

Results

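Antigens of the whipworm Trichuris muris, given alone, were compared with control in CMT-93 cells, an epithelial line from mouse rectum. This comparison took 6 of the 12 RNA-seq libraries of the study, the 3 labelled T. muris and the 3 labelled Control. The T. muris group received vehicle for 30 minutes and then antigens at 100 µg/mL, and the control group received no PTSO and no antigens. The other 6 libraries came from cells given PTSO at 20 µM, alone or ahead of the antigens. All cells were harvested at 6 hours. LPS appears in the series title, whereas the label of each antigen sample gives T. muris, and the labels set the grouping used here. Whether the controls also received the solvent of the antigens is not stated. The labels call the 3 libraries of a group triplicates without saying that they came from separate cultures, so p-values measure the spread between these libraries, which may be technical. All 4 groups come from a single established cell line, with no immune cells and no living worm.

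Whipworms live in the caecum and colon with the anterior end threaded through epithelial cells, so the epithelium is the first tissue to meet their secreted and structural antigens. In mice, colonic epithelial cells sense worms and bacteria through pattern recognition receptors. They answer with chemokines, with alarmin cytokines such as IL-33 and TSLP that start type 2 immunity, and with faster cell turnover that helps to expel the worm. PTSO, propyl propane thiosulfonate, written PTSO-PTS in the design text, is an organosulfur compound from garlic and onion.

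Control libraries held 24597834 to 25931291 counts and antigen libraries 16684143 to 34506754 counts, of which mitochondrially encoded transcripts took 1.20 to 1.33% and 1.22 to 1.57%. Levels below are CPM, counts scaled to a common library size after TMM, which adjusts for composition. The summed marker levels of this paragraph are CPM of the library totals, without TMM. Epithelial identity rested on Krt8, Krt18, Krt19, Cdh1, Epcam and Cldn4, which were abundant in all 6 libraries. The 13 epithelial markers summed to 9573 to 9843 CPM in control and 9558 to 9642 CPM in antigen libraries. The intestinal genes Vil1 and Cdx2 were low, at 52 to 113 and 17 to 31 counts, and Cdx1 was at 0. The 14 leukocyte markers summed to 5.77 to 6.75 CPM in control and 4.38 to 5.96 CPM in antigen libraries, most of it Cd68, with Lyz2 and Itgam at 0 in all 6. The 14 fibroblast and endothelial markers summed to 8.29 to 10.3 and 8.69 to 8.86 CPM, with Col3a1, Dcn, Lum, Thy1 and Pdgfrb at 0 in all 6. In each of the 3 lists the ranges of the groups overlapped.

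The 3 control libraries were not alike, so results are given with and without them. Of 15267 genes tested, 969 (6.35%) differed between antigen-treated and control cells in edgeR's quasi-likelihood test at an adjusted p under 0.05. Transcripts of 445 genes were higher (2.91%) and of 524 lower (3.43%). Changes were small, with a median size of 0.30 on the log2 scale, or 1.23-fold, and 20 genes reached a log2 fold change of 1 in size. In 890 of the 969 no library of one group overlapped the other, which held for 22.9% of all genes tested. This held for 412 of the higher genes, against 11.3% of all genes in that direction, and for 478 of the lower genes, against 11.7%. The same libraries gave the calls, which favours genes without overlap, so these counts are not separate support for the calls. For 918 of the 969 (94.7%), control library 1 was the control nearest to the antigen mean, against 56.9% of all genes. In the direction of the change, the median gap between the antigen mean and a control was 0.14 log2 units for control library 1, 0.37 for control library 2 and 0.41 for control library 3. Control library 1 lay on the same side of the antigen mean as the other two for 968 of the 969 genes.

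Without control libraries 2 and 3, 8 of 16619 genes were called (0.0481%), 2 higher (0.012%) and 6 lower (0.0361%), 4 of them among the 969 with the same sign, and 788 (4.74%) had an unadjusted p under 0.05. The median size of the 969 differences was then 0.14, with the same sign in 968. Over all 15267 genes the median size was then 0.10, and 71.6% kept their sign. Control library 1 and the antigen libraries had also entered the choice of the 969, so the kept sign is not separate support. Without control library 1, 4044 of 15718 genes were called (25.7%), 968 of the 969 among them, and the median size was 0.38. Leaving control library 2 out left 5 calls, and leaving control library 3 out left 66. The median size of the 969 differences was 0.27 and 0.25 in those fits, against 0.30 with all libraries, so most calls were lost with little loss of size. The number of calls was 2, 24 and 58 without antigen library 1, 2 or 3. It lay between 568 and 799 when 1 of the 6 PTSO-treated libraries was left out. Those libraries enter this comparison only through the filter on low counts, the scaling and the estimate of the spread. A fit on the 6 compared libraries alone called 1 gene, a predicted locus outside the 969, with 3101 genes at an unadjusted p under 0.05, while DESeq2 on all 12 called 1960.

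**Figure D1:**
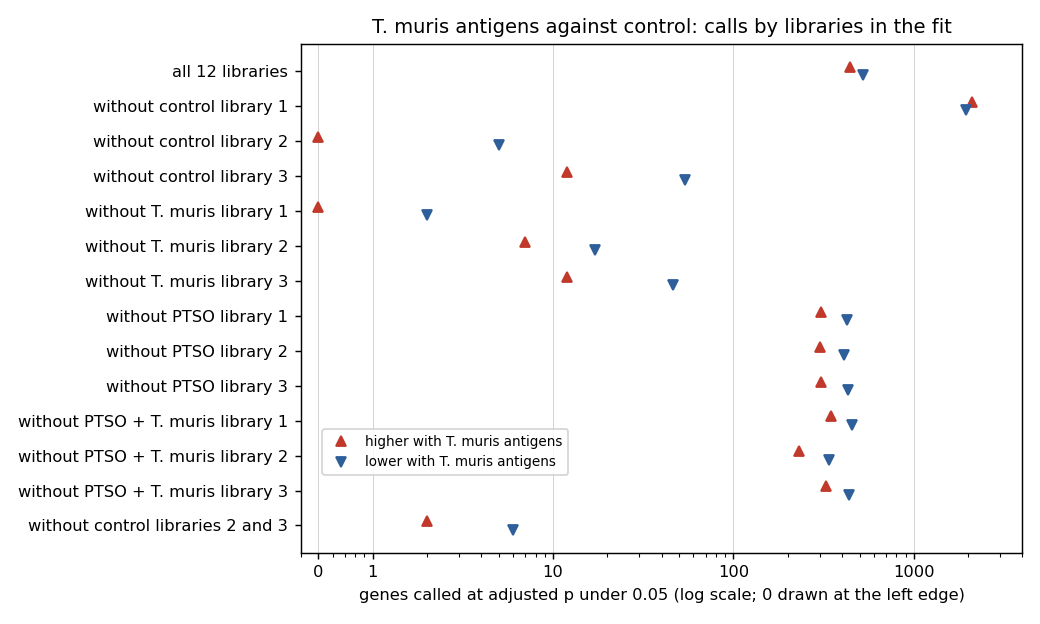
Number of genes called higher (upward triangles) or lower (downward triangles) with T. muris antigens than in control at an adjusted p under 0.05, on a log axis with 0 at the left edge, for the fit of all 12 libraries and for fits without the libraries named at the left. Leaving out control library 1 raised the calls to 4044, while leaving out control library 2 or antigen library 1 left 5 and 2.

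Few calls stood without the 2 controls that lay farther from the antigen libraries. Slc7a11, the cystine-glutamate exchanger that supplies cysteine for glutathione, was the annotated gene that rose both with all controls and without control libraries 2 and 3. It measured 107, 86.4 and 70.6 CPM in control libraries 1 to 3 and 142, 138 and 138 CPM in antigen libraries 1 to 3. Every antigen library was above every control, and the antigen libraries lay closer together than the controls. The rise had a log2 fold change 0.66, SE 0.11, adjusted p = 0.0185 and was 0.38 (adjusted p = 0.00598) without control libraries 2 and 3; over 30 alternative settings the adjusted p ran from 1.2e-13 to 0.448. Its promoter is shown because the amino acid response element TGATGNAA, the sequence bound by ATF4 and CEBP factors, occurs there on both strands. The element is in capitals, and the window is 250 bases before to 50 after the RefSeq transcription start in GRCm38.p6.
Slc7a11 promoter, chr3:50443564-50443863, minus strand: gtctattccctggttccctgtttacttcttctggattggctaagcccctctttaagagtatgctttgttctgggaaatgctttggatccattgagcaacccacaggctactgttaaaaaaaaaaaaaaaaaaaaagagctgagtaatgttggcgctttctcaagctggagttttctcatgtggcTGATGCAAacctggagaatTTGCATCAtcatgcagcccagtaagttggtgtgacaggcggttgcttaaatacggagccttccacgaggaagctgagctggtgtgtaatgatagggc
Searched on both strands, TGATGNAA occurred in 2.27% of the promoters of the 10227 tested genes matched to RefSeq by symbol and in 4.06% of all promoters in the table. It was in 2 of 6 promoters of called members of the ATF4 list below and in 6 of 17 of those not called, so it did not separate them. A match describes the letters and is not a measured binding site.

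Lama5, which encodes the laminin alpha-5 chain of epithelial basement membrane, measured 1528, 1901 and 1639 CPM in control libraries 1 to 3 and 1156, 1228 and 1233 CPM in antigen libraries 1 to 3. Control library 2 was the highest and control library 1 the nearest to the antigen libraries, which all lay below the controls (log2 fold change -0.49, SE 0.07, adjusted p = 0.0104). Without control libraries 2 and 3 it was -0.34 (adjusted p = 0.00598, from 2.89e-21 to 0.368 over 30 settings). Notch2, a receptor of the Notch pathway, measured 128, 170.1 and 143 CPM in control libraries 1 to 3 and 92.9, 95.3 and 110.2 CPM in antigen libraries 1 to 3, again without overlap (log2 fold change -0.57, SE 0.09, adjusted p = 0.0107). Its fall without control libraries 2 and 3 was -0.36 (adjusted p = 0.0419, from 5.85e-18 to 0.448 over 30 settings). Lamb2, the laminin beta-2 chain, measured 238, 261 and 263 CPM in control libraries 1 to 3 and 209, 188 and 200.4 CPM in antigen libraries 1 to 3 (log2 fold change -0.35, SE 0.05, adjusted p = 0.0104). It was the 1 gene of the 969 that was called whichever single library was left out, and it was named after its values were seen. Without control libraries 2 and 3 together Lamb2 was -0.25 and no longer passed (adjusted p = 0.122, from 3.67e-08 to 0.448 over 30 settings). Lama5 lost its call without antigen library 1, Notch2 without antigen library 1 or 2, and Slc7a11 without control library 2 or any antigen library. The remaining gene of the 4 is an unannotated locus.

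**Figure D2:**
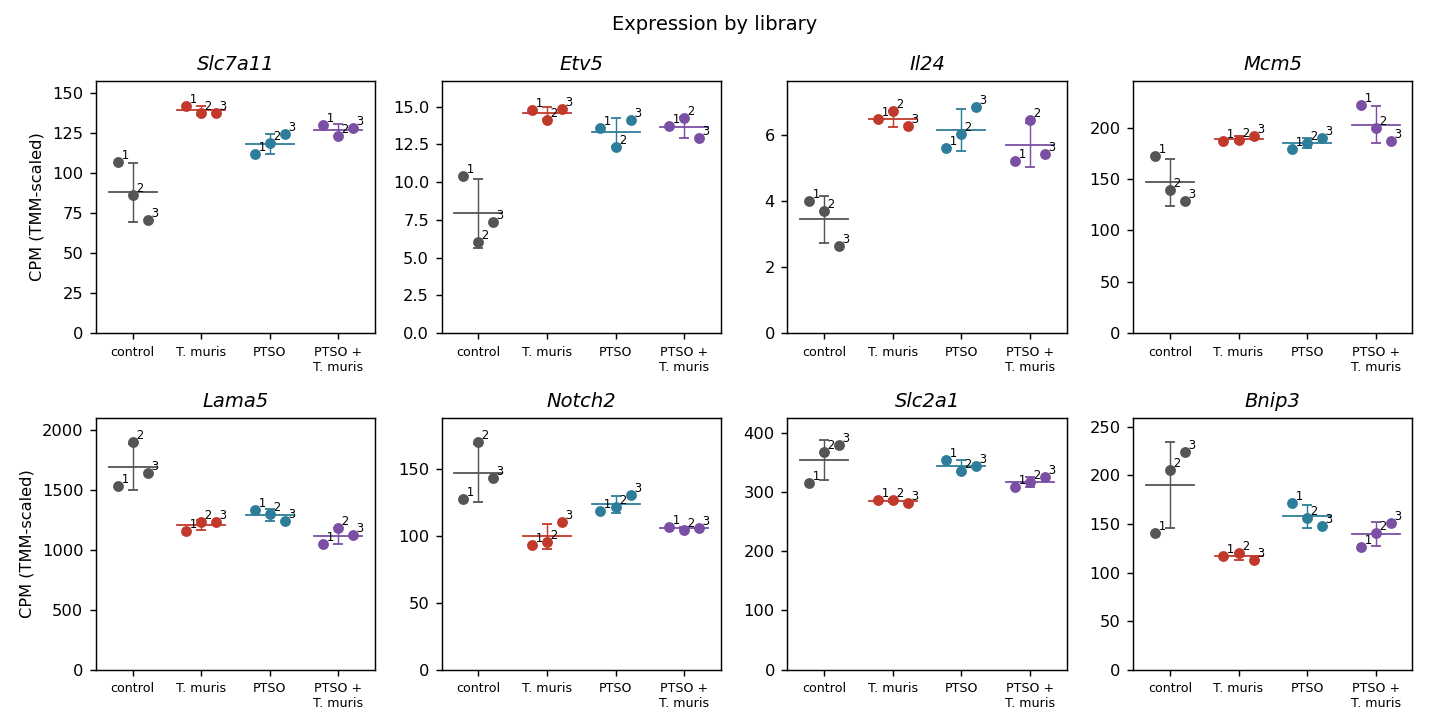
TMM-scaled CPM of 8 genes in all 12 libraries, by group, with points numbered by library, a horizontal line at the group mean and a bar of 1 SD (n = 3). In Slc7a11 the 3 antigen libraries sit between 138 and 142 CPM, and control library 1 is the control nearest to them in Slc7a11, Etv5, Il24, Mcm5, Lama5, Notch2, Slc2a1 and Bnip3.

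The largest rises were taken among annotated called genes without overlap between groups and with an average log2 CPM of at least 1. The 10 largest were in Cd53, Anks1b, Vgf, Il24, Etv5, Cenpp, Dusp6, Aldh3a1, Gpx2 and Igfbp3. Etv5, an ETS-family transcription factor induced downstream of ERK signalling, measured 10.4, 6.00 and 7.37 CPM in control libraries 1 to 3 and 14.8, 14.1 and 14.9 CPM in antigen libraries 1 to 3 (log2 fold change 0.88, SE 0.15, adjusted p = 0.0104). Dusp6, the phosphatase that switches ERK off, measured 21.6, 14.6 and 10.7 CPM in control libraries 1 to 3 and 25.7, 26.8 and 26.1 CPM in antigen libraries 1 to 3 (log2 fold change 0.75, SE 0.18, adjusted p = 0.0335). Control library 1 held the most Dusp6 of the controls and control library 3 the least. Il24, an epithelial cytokine of the IL-10 family, measured 4.01, 3.69 and 2.65 CPM in control libraries 1 to 3 and 6.48, 6.73 and 6.26 CPM in antigen libraries 1 to 3 (log2 fold change 0.91, SE 0.18, adjusted p = 0.0149). Its antigen libraries lay close to each other. Cd53, a tetraspanin best known from leukocytes, measured 1.39, 1.62 and 1.11 CPM in control libraries 1 to 3 and 2.83, 3.29 and 3.43 CPM in antigen libraries 1 to 3 (log2 fold change 1.20, SE 0.24, adjusted p = 0.0165), at counts of 29 to 40 in control and 57 to 97 in antigen libraries.

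Igfbp3, a secreted carrier of insulin-like growth factors, measured 35.6, 25.2 and 19.3 CPM in the controls and 43.8, 41.4 and 47.1 CPM with antigens (log2 fold change 0.72, SE 0.17). Vgf, a secreted neuropeptide precursor that growth factors induce, measured 3.49, 2.47 and 1.65 CPM in the controls and 5.70, 4.37 and 4.64 CPM with antigens (0.96, SE 0.23). Aldh3a1, an aldehyde dehydrogenase, measured 23.4, 14.9 and 13.4 CPM in the controls and 28.3, 27.3 and 30.8 CPM with antigens (0.74, SE 0.15). In each of these the lowest antigen library was above the highest control, which the rule for listing them required. Anks1b and Cenpp, the latter a centromere protein, rose by 1.02 (SE 0.25) and 0.77 (SE 0.20) at 1.18 to 5.24 CPM. Without control libraries 2 and 3, Cd53 was at 1.19 and Anks1b at 1.15, and neither passed the test. When control libraries 2 and 3 were both left out, 10 of the 10 largest rises lost their call, as did 10 without control library 2 alone and 8 without control library 3 alone. Antigen libraries 1, 2 and 3 cost 10, 9 and 8 calls when left out, control library 1 cost 0, and single libraries with PTSO cost 0 to 2.

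The 10 largest falls by the same rule were Tmem150a, Ccdc33, Ascl4, Car11, C1rl, Serpinb10, Cib3, Wnk2, Atp2b4 and Hdac5. Atp2b4, a plasma membrane calcium pump, measured 24.6, 40.6 and 39.2 CPM in control libraries 1 to 3 and 19.6, 17.3 and 16.4 CPM in antigen libraries 1 to 3 (log2 fold change -0.96, SE 0.15, adjusted p = 0.0104). Control libraries 2 and 3 were close to each other, and control library 1 lay between them and the antigen libraries. Serpinb10, an intracellular serine protease inhibitor, measured 10.2, 17.04 and 20.9 CPM in control libraries 1 to 3 and 8.21, 6.07 and 7.41 CPM in antigen libraries 1 to 3 (log2 fold change -1.15, SE 0.23, adjusted p = 0.0192). Hdac5, a class IIa histone deacetylase, measured 12.6, 18.99 and 24.4 CPM in control libraries 1 to 3 and 9.90, 9.01 and 10.1 CPM in antigen libraries 1 to 3 (log2 fold change -0.95, SE 0.19, adjusted p = 0.0202). For both, control library 3 was the highest of the 6 and control library 1 the control nearest to the antigen libraries.

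The others were at low levels. Tmem150a, a transmembrane protein, measured 5.51, 6.61 and 5.14 CPM in the controls and 2.07, 0.309 and 0.422 CPM with antigens, or 7 to 71 counts per antigen library (log2 fold change -2.49, SE 0.61, adjusted p = 0.0413). Antigen library 1 held several times the level of the other 2 and, as the rule for listing required, lay under every control. Wnk2, a kinase that regulates ion transport, measured 4.72, 6.45 and 6.33 CPM in the controls and 2.48, 3.29 and 3.07 CPM with antigens (-0.99, SE 0.23). C1rl, a complement C1r-like protease, measured 2.34, 4.54 and 3.57 CPM in the controls and 1.37, 1.89 and 1.32 CPM with antigens (-1.18, SE 0.28). Car11, Cib3, Ccdc33 and Ascl4 fell by 1.18, 1.10, 1.57 and 1.40 on the log2 scale, each between a control of at most 8.64 CPM and an antigen library of at least 0.903 CPM. The calls of the 10 largest falls rested on control library 2 in 10, on control library 3 in 9 and on the pair of them in 10, counted as calls lost when those libraries were left out. For control library 1 the number was 0, for antigen libraries 1 to 3 it was 9, 10 and 9, and for single libraries with PTSO 0 to 2. Adjusted p-values of the 10 falls in edgeR's test ran from 0.0618 to 0.167 without control library 2. They ran from 0.0261 to 0.236 without control library 3.

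Many genes of glycolysis and the hypoxia response fell. Of 27 tested members, 16 were called lower and 0 higher, against 3.43% of all genes called lower, and in 22 every antigen library lay below every control, against 11.7% of all genes. The median log2 fold change was -0.25, beside 0.00 for all genes tested. Slc2a1, the glucose transporter GLUT1, measured 315, 368 and 379 CPM in control libraries 1 to 3 and 286, 286 and 282 CPM in antigen libraries 1 to 3 (log2 fold change -0.31, SE 0.06, adjusted p = 0.0107). Pfkp, a phosphofructokinase of the committed step of glycolysis, measured 117, 150.0 and 157 CPM in control libraries 1 to 3 and 101, 97.2 and 99.6 CPM in antigen libraries 1 to 3 (log2 fold change -0.51, SE 0.08, adjusted p = 0.0109). In both genes control library 1 was the lowest control and still above each antigen library. Adm, the peptide adrenomedullin and a target of hypoxia-inducible factors, measured 8.97, 11.2 and 13.7 CPM in control libraries 1 to 3 and 6.60, 6.65 and 5.54 CPM in antigen libraries 1 to 3 (log2 fold change -0.84, SE 0.16, adjusted p = 0.014). Bnip3, a hypoxia-induced mitophagy receptor, measured 140.5, 206 and 224 CPM in control libraries 1 to 3 and 117, 119.7 and 113 CPM in antigen libraries 1 to 3 (log2 fold change -0.70, SE 0.15, adjusted p = 0.0353); its 3 controls spread over more CPM than separated control library 1 from the antigen libraries.

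The other 12 called members fell by 0.21 to 0.42 on the log2 scale. They run along the pathway, from hexokinase (Hk2), glucose phosphate isomerase (Gpi1), phosphofructokinase (Pfkl) and its regulator Pfkfb3 to aldolase (Aldoa), triose phosphate isomerase (Tpi1), phosphoglycerate kinase (Pgk1) and phosphoglycerate mutase (Pgam1). The lactate exporter Slc16a3, the pyruvate dehydrogenase kinase Pdk1, the angiogenic factor Vegfa and the collagen prolyl hydroxylase P4ha1 were also lower. Ldha, which makes lactate, was -0.13 with an adjusted p of 0.06 and did not pass. Of the whole list, the median difference of the antigen mean was -0.12 from control library 1, -0.28 from control library 2 and -0.34 from control library 3, in log2 CPM. Of the 16 called members, 16 were no longer called without control library 2, 14 without control library 3, and 16 without both. The number lost was 0 without control library 1, 16, 16 and 13 without antigen library 1, 2 or 3, and 0 to 4 without any 1 of the 6 libraries with PTSO. Without both of those controls the list's median was -0.12, with 25 of 27 members below 0, 10 of them at an unadjusted p under 0.05, and 0 called.

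The Slc2a1 and Hk2 promoters show the core of the hypoxia response element, ACGTG on either strand, in capitals, in the same RefSeq window and build.
Slc2a1 promoter, chr4:119108495-119108794, plus strand: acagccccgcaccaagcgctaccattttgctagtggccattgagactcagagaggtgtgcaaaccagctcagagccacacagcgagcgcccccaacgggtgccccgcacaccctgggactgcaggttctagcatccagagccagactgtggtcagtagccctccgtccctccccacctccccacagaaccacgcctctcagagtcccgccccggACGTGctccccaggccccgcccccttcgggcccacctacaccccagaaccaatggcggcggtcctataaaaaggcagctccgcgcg
Hk2 promoter, chr6:82774405-82774704, minus strand: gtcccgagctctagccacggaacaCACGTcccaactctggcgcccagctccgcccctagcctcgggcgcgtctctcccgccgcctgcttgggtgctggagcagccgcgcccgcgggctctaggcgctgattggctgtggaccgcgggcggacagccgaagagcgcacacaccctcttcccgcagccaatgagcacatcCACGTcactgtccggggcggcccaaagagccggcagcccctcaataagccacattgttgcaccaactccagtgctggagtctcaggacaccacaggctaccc
The letters ACGTG were in 8 of the 16 promoters of called members and in 5 of the 10 of members not called, so their presence did not separate the members. The share was 25.5% of promoters of tested genes and 19.7% of all promoters. The Pfkp and Adm windows held no match, which says only that these letters are not in those 300 bases.

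Among genes of DNA replication and mitosis, 22 were called higher. Of 21 tested replication genes, 13 were called higher and 0 lower, and of 21 mitosis genes 9 were called higher and 0 lower, against 2.91% of all genes called higher. The median log2 fold changes were 0.30 and 0.26. In bulk RNA, more cells in a cell cycle phase and more RNA per cell cannot be told apart. Mcm5, a subunit of the replicative helicase, measured 172, 139.9 and 128 CPM in control libraries 1 to 3 and 188, 188 and 192 CPM in antigen libraries 1 to 3 (log2 fold change 0.37, SE 0.09, adjusted p = 0.0327). Gins1, a subunit of the GINS complex that works with the helicase, measured 34.3, 26.98 and 24.8 CPM in control libraries 1 to 3 and 39.9, 39.8 and 35.2 CPM in antigen libraries 1 to 3 (log2 fold change 0.42, SE 0.10, adjusted p = 0.024). In both, control library 1 lay nearer to the antigen libraries than to control library 3.

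Another 10 of the replication genes called higher rose by 0.16 to 0.44. They were the helicase subunits Mcm3, Mcm4, Mcm6 and Mcm7, the helicase partners Gins2 and Cdc45, the sliding clamp Pcna, the primase Prim1 and the ribonucleotide reductase subunits Rrm1 and Rrm2. The 9 mitosis genes rose by 0.21 to 0.37 and included cyclin A2 (Ccna2), Polo-like kinase (Plk1), Aurora B kinase (Aurkb), topoisomerase II alpha (Top2a) and the spindle proteins Kif20a, Tpx2, Prc1 and Nusap1 with the checkpoint kinase Bub1b. Aurkb was the 1 of these in which the lowest antigen library, at 77.6 CPM, met the highest control, at 77.6 CPM. Over the replication list, the median difference of the antigen mean was 0.10 from control library 1, 0.38 from control library 2 and 0.54 from control library 3, in log2 CPM. Over the mitosis list these medians were 0.06, 0.31 and 0.42. When control libraries 2 and 3 were both left out, 22 of the 22 called genes of both lists lost their call, as did 22 without control library 2 alone and 22 without control library 3 alone. Antigen libraries 1, 2 and 3 cost 22, 22 and 22 calls when left out, control library 1 cost 0, and single libraries with PTSO cost 3 to 12.

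The Mcm7 promoter carries the E2F site TTTCCCGC, given in capitals as it reads on the printed strand.
Mcm7 promoter, chr5:138171834-138172133, minus strand: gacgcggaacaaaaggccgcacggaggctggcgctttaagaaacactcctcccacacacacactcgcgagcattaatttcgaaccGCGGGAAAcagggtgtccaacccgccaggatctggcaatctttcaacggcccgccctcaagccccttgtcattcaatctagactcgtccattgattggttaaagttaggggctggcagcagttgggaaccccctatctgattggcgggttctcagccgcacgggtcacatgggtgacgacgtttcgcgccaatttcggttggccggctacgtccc
TTTCCCGC on either strand was in 2 of the 9 promoters of called replication genes, in 1 of the 7 of those not called, in 5.76% of promoters of all genes called higher, in 1.70% of those called lower and in 2.13% of promoters of tested genes.

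Among antioxidant genes 8 were called higher. Of 33 tested NRF2 targets and antioxidant genes, 8 were called higher and 0 lower, against 2.91% of all genes called higher and 3.43% called lower, with a median log2 fold change of 0.20. NRF2 is the transcription factor that drives glutathione and detoxification genes under electrophile stress. Gpx2, the gastrointestinal glutathione peroxidase, measured 13.8, 7.38 and 8.33 CPM in control libraries 1 to 3 and 14.9, 17.1 and 17.04 CPM in antigen libraries 1 to 3 (log2 fold change 0.73, SE 0.17, adjusted p = 0.024). Gsta4, a glutathione transferase that clears lipid peroxidation products, measured 11.8, 10.1 and 12.2 CPM in control libraries 1 to 3 and 15.9, 14.2 and 17.9 CPM in antigen libraries 1 to 3 (log2 fold change 0.49, SE 0.13, adjusted p = 0.0332). Gpx2 in control library 1 was just under the lowest antigen library, while all 3 controls of Gsta4 were close together. Besides Slc7a11, the called genes were heme oxygenase (Hmox1, 0.35), the glutathione synthesis subunit Gclm (0.35), thioredoxin reductase (Txnrd1, 0.27), glutathione reductase (Gsr, 0.20) and the NADPH-producing Pgd (0.31). The antioxidant response element, searched on both strands, was in 0 of the 5 promoters of called members found, in 1 of 23 of those not called and in 2.64% of promoters of tested genes. Over the list, the median difference of the antigen mean was 0.07 from control library 1, 0.33 from control library 2 and 0.28 from control library 3, in log2 CPM.

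The ATF4 list, genes of the integrated stress response to amino acid shortage, had 4 of 26 members called higher and 2 lower, against 2.91% of all genes called higher and 3.43% called lower, with a median of 0.28. Besides Slc7a11, its heavy-chain partner Slc3a2 rose by 0.25, the mTORC1 inhibitor Sesn2 by 0.51 and the transcription factor Atf3 by 0.33. Ddit4, another mTORC1 inhibitor, measured 107, 126 and 127 CPM in control libraries 1 to 3 and 96.9, 97.8 and 95.3 CPM in antigen libraries 1 to 3 (log2 fold change -0.31, SE 0.06, adjusted p = 0.0117). Vldlr, a lipoprotein receptor, fell by 0.46. Called members of this list thus moved in both directions, while 21 of its 26 tested members were above 0. Of the 26, 15 were higher and 2 lower at an unadjusted p under 0.05 in edgeR's test. The list's median difference of the antigen mean was 0.04 from control library 1, 0.35 from control library 2 and 0.45 from control library 3, in log2 CPM. Of 8 targets of the aryl hydrocarbon receptor, Aldh3a1 and Cyp1b1 were called higher and 0 lower, or 25% called against 6.35% of all genes. Cyp1b1 rose by 0.23 with overlapping libraries. At an unadjusted p under 0.05 in edgeR's test, 5 of these targets were higher and 2 lower. The calls of the 15 called genes of these 3 lists rested on control library 2 in 15, on control library 3 in 13 and on the pair of them in 14, counted as calls lost when those libraries were left out. For control library 1 the number was 0, for antigen libraries 1 to 3 it was 15, 15 and 15, and for single libraries with PTSO 3 to 4.

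Of 29 immediate early genes and feedback regulators of MAP kinase signalling, 6 were called higher and 2 lower, against 2.91% of all genes called higher and 3.43% called lower. Fos, a subunit of AP-1, measured 52.4, 39.96 and 34.2 CPM in control libraries 1 to 3 and 56.8, 55.8 and 54.99 CPM in antigen libraries 1 to 3 (log2 fold change 0.41, SE 0.11, adjusted p = 0.0388). Its control library 1 lay close under the antigen libraries, with control library 3 the lowest. Ier5 rose by 0.39, Klf6 by 0.22 and the ERK pathway inhibitor Spred1 by 0.23, beside Dusp6 and Atf3 above. Dusp4, a nuclear phosphatase of MAP kinases, measured 175, 192 and 188 CPM in control libraries 1 to 3 and 153, 160.3 and 157 CPM in antigen libraries 1 to 3 (log2 fold change -0.24, SE 0.05, adjusted p = 0.0183), and Maff, a small Maf factor, fell by 0.19. The feedback phosphatases Dusp6 and Dusp4 therefore differed in opposite directions. Of 24 EGF ligands and wound repair genes, Il24 and Plau, the urokinase plasminogen activator, were called higher and 0 lower, or 8.33% called against 6.35% of all genes. Plau measured 23.6, 16.1 and 14.9 CPM in the controls and 27.9, 26.2 and 26.3 CPM with antigens (0.56, SE 0.14). Of the 10 called genes of these 2 lists, 10 were no longer called without control library 2, 9 without control library 3, and 10 without both. The number lost was 0 without control library 1, 10, 10 and 9 without antigen library 1, 2 or 3, and 1 to 4 without any 1 of the 6 libraries with PTSO.

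Inflammatory genes that were called went in both directions. Of 27 NF-kB targets and cytokines, 2 were called higher and 2 lower, or 14.8% against 6.35% of all genes, with a median of 0.03. Cxcl5, a chemokine that attracts neutrophils, measured 45.2, 33.1 and 29.2 CPM in control libraries 1 to 3 and 48.6, 49.7 and 47.6 CPM in antigen libraries 1 to 3 (log2 fold change 0.44, SE 0.11, adjusted p = 0.0346). Cxcl1, another neutrophil chemokine, measured 6.39, 5.11 and 5.07 CPM in control libraries 1 to 3 and 7.83, 8.19 and 7.71 CPM in antigen libraries 1 to 3 (log2 fold change 0.52, SE 0.15, adjusted p = 0.0488). Control library 1 was the highest control for both. Csf1, the growth factor of macrophages, measured 49.8, 57.5 and 60.2 CPM in control libraries 1 to 3 and 41.4, 41.1 and 39.6 CPM in antigen libraries 1 to 3 (log2 fold change -0.45, SE 0.08, adjusted p = 0.0107), and Tnip1, an inhibitor of NF-kB signalling, fell by 0.34. The NF-kB inhibitor gene Nfkbia was -0.07 (SE 0.09) and Tnfaip3 0.18 (SE 0.16), neither past the test.

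Over all 15267 genes, edgeR's quasi-likelihood test gave 3848 (25.2%) an unadjusted p under 0.05, and DESeq2 called 1960. By edgeR's quasi-likelihood test, 0 of 19 Toll-like and NOD receptor sensing genes were called, with 5 at an unadjusted p under 0.05 and 3 called by DESeq2. The same test called 0 of 9 alarmins and type 2 response genes, with 1 at an unadjusted p under 0.05 and 0 called by DESeq2. Il33, the nuclear alarmin of epithelium, was -0.04 (SE 0.05). The test also called 0 of 8 antimicrobial genes, with 1 at an unadjusted p under 0.05 and 0 called by DESeq2. Where 3.43% of all genes were called lower, 1 of 20 interferon-stimulated genes was called lower, the RNA sensor Ddx58. Ddx58 measured 29.6, 37.6 and 41.3 CPM in the controls and 28.5, 25.4 and 27.8 CPM with antigens (-0.41, SE 0.10). Of 15 antigen presentation genes 1 was called lower (6.67%), the peptide transporter Tap2. Tap2 measured 8.61, 11.5 and 12.5 CPM in the controls and 6.31, 7.81 and 7.83 CPM with antigens (-0.58, SE 0.16). Of 8 mucus and goblet cell genes 1 was called lower (12.5%), the transmembrane mucin Muc1. Muc1 measured 26.9, 31.5 and 33.2 CPM in the controls and 23.4, 21.7 and 23.97 CPM with antigens (-0.41, SE 0.12). When control libraries 2 and 3 were both left out, 7 of the 7 called genes of the immune and mucus lists lost their call, as did 7 without control library 2 alone and 6 without control library 3 alone. Antigen libraries 1, 2 and 3 cost 7, 7 and 7 calls when left out, control library 1 cost 0, and single libraries with PTSO cost 2 to 5. The medians of the interferon list were 0.03, -0.27 and -0.25 log2 CPM against control libraries 1, 2 and 3, so the sign depended on the control.

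Of 23 junction and adhesion genes, 3 were called lower and 1 higher, where 3.43% of all genes were called lower and 2.91% higher. Tjp3, a tight junction scaffold, measured 33.05, 39.5 and 43.2 CPM in control libraries 1 to 3 and 26.2, 26.3 and 28.2 CPM in antigen libraries 1 to 3 (log2 fold change -0.52, SE 0.11, adjusted p = 0.0184). The desmosome genes Dsp and Jup fell by 0.24 and 0.29, while the adhesion molecule Epcam rose by 0.15, from 495, 478 and 504 to 546, 551 and 546 CPM. Of 15 ion and water transport genes, 4 were called lower and 0 higher, beside the same shares. By log2 fold change, 9 of the 15 were below 0 and 6 above. Slc4a4, a sodium bicarbonate cotransporter, measured 98.3, 125 and 125 CPM in control libraries 1 to 3 and 84.98, 85.4 and 85.9 CPM in antigen libraries 1 to 3 (log2 fold change -0.44, SE 0.07, adjusted p = 0.0107). Kcnq1, a potassium channel, measured 53.9, 74.4 and 80.8 CPM in the controls and 50.01, 49.1 and 49.7 CPM with antigens (-0.49, SE 0.12). Control library 1 lay near the antigen libraries for both and control libraries 2 and 3 above. The calcium-activated chloride channel Ano1 fell by 0.23, and the sodium-proton exchanger Slc9a3 fell by 1.06 at 0.966 to 3.16 CPM.

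Of 16 Wnt target and stem cell genes, 3 were called lower and 0 higher, where 3.43% of all genes were called lower. In log2 fold change, 10 of the 16 were below 0 and 6 above. Lgr5, the R-spondin receptor that marks crypt base stem cells, measured 42.5, 64.1 and 68.01 CPM in control libraries 1 to 3 and 39.1, 39.3 and 38.2 CPM in antigen libraries 1 to 3 (log2 fold change -0.58, SE 0.15, adjusted p = 0.0397). Its control library 1 lay close above the antigen libraries, and control libraries 2 and 3 far above them. Ephb3 and the Wnt receptor ligase Znrf3 fell by 0.30 and 0.25. Smad6, a feedback inhibitor of BMP signalling, fell by 0.61 (12.4, 19.6 and 20.5 CPM in the controls and 10.9, 12.1 and 11.4 CPM with antigens), the 1 call among 22 TGF-beta, activin and BMP genes (4.55%, against 6.35% of all genes). Krt7 fell by 0.19, the 1 call among 12 keratins (8.33%). The calls of the 13 called genes of these 5 lists rested on control library 2 in 13, on control library 3 in 12 and on the pair of them in 13, counted as calls lost when those libraries were left out. For control library 1 the number was 0, for antigen libraries 1 to 3 it was 13, 13 and 12, and for single libraries with PTSO 1 to 7. Against control library 1 the medians of the junction, transport and Wnt lists were -0.01, 0.04 and -0.01 log2 CPM, and against control library 3 they were -0.22, -0.33 and -0.40.

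Of 25 cholesterol synthesis genes, 5 were called lower and 0 higher, where 3.43% of all genes were called lower. In fold change, 21 of the 25 were below 0 and 4 above on the log2 scale, with a median of -0.14. Hmgcs1, the synthase ahead of HMG-CoA reductase, measured 148, 159 and 176 CPM in control libraries 1 to 3 and 131, 135 and 131 CPM in antigen libraries 1 to 3 (log2 fold change -0.28, SE 0.06, adjusted p = 0.0185). Sqle, squalene epoxidase, fell by 0.21, the sterol sensor Insig1 by 0.23 and the sterol carrier Stard4 by 0.19. In all 5 called genes every antigen library lay below every control, as in 478 of the 524 genes called lower and 11.7% of all genes. Of the 5 genes, 5 were no longer called without control library 2, 5 without control library 3, and 5 without both. The number lost was 0 without control library 1, 5, 5 and 5 without antigen library 1, 2 or 3, and 1 to 3 without any 1 of the 6 libraries with PTSO.

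The remaining lists held 0 to 4 calls each, beside 6.35% of all genes called. Proteasome subunits had 2 of 26 called higher, Psma3 and Psmc2, at 0.19 and 0.22, or 7.69% against 2.91% of all genes called higher. Of the 26, 25 were above 0. At an unadjusted p under 0.05 in edgeR's test, 15 were higher and 0 lower, against 25.2% of all genes in either direction. The list's median difference of the antigen mean was 0.03 from control library 1, 0.16 from control library 2 and 0.16 from control library 3, in log2 CPM. Genes of the unfolded protein response of the endoplasmic reticulum had 2 of 21 higher, the secreted factor Manf and the chaperone Hyou1, and 1 lower, the stress sensor Ern1 (-0.23), together 14.3%. Ahsa1, an activator of HSP90, was the 1 of 19 heat shock genes called (5.26%), at 0.27. Of 18 complement, acute phase and matrix genes, 1 was called higher and 2 lower (16.7%). Timp1, an inhibitor of matrix metalloproteinases, measured 45.3, 39.5 and 39.1 CPM in control libraries 1 to 3 and 56.3, 50.2 and 56.01 CPM in antigen libraries 1 to 3 (log2 fold change 0.39, SE 0.08, adjusted p = 0.0148). Ceruloplasmin (Cp), the copper-carrying ferroxidase, measured 108, 137 and 148 CPM in control libraries 1 to 3 and 88.1, 87.8 and 87.9 CPM in antigen libraries 1 to 3 (log2 fold change -0.58, SE 0.10, adjusted p = 0.0185). The 3 antigen libraries of Cp were nearly equal, and each control was above them. The metalloproteinase Mmp14 fell by 0.26. Of 21 p53 targets and cell cycle inhibitors (9.52% called), Sesn2 rose by 0.51 and the cell cycle inhibitor Cdkn2a fell by 0.21. Of 15 nuclear receptor genes (6.67%), the retinoic acid receptor Rarg fell by 0.22. Of 21 selenoproteins, Gpx2, Txnrd1 and Selenof rose and Selenoo fell (19.05%). When control libraries 2 and 3 were both left out, 16 of the 16 called genes named for these lists lost their call, as did 16 without control library 2 alone and 15 without control library 3 alone. Antigen libraries 1, 2 and 3 cost 16, 15 and 16 calls when left out, control library 1 cost 0, and single libraries with PTSO cost 2 to 6.

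EdgeR's quasi-likelihood test called 0 members of 6 further lists. Over all 15267 genes, 25.2% had an unadjusted p under 0.05 in that test, and DESeq2 called 1960. The 26 ribosomal protein genes had 6 at an unadjusted p under 0.05 and 3 called by DESeq2, and the 4 enterocyte genes had 1 at an unadjusted p under 0.05 and 1 called by DESeq2. The 15 mitochondrially encoded transcripts had 1 at an unadjusted p under 0.05 and 0 called by DESeq2, and the 6 abundant nuclear noncoding RNAs had 4 at an unadjusted p under 0.05 and 3 called by DESeq2. The 3 tested leukocyte markers had 1 at an unadjusted p under 0.05 and 0 called by DESeq2, and the 5 fibroblast and endothelial markers had 0 at an unadjusted p under 0.05 and 0 called by DESeq2.

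**Figure D3:**
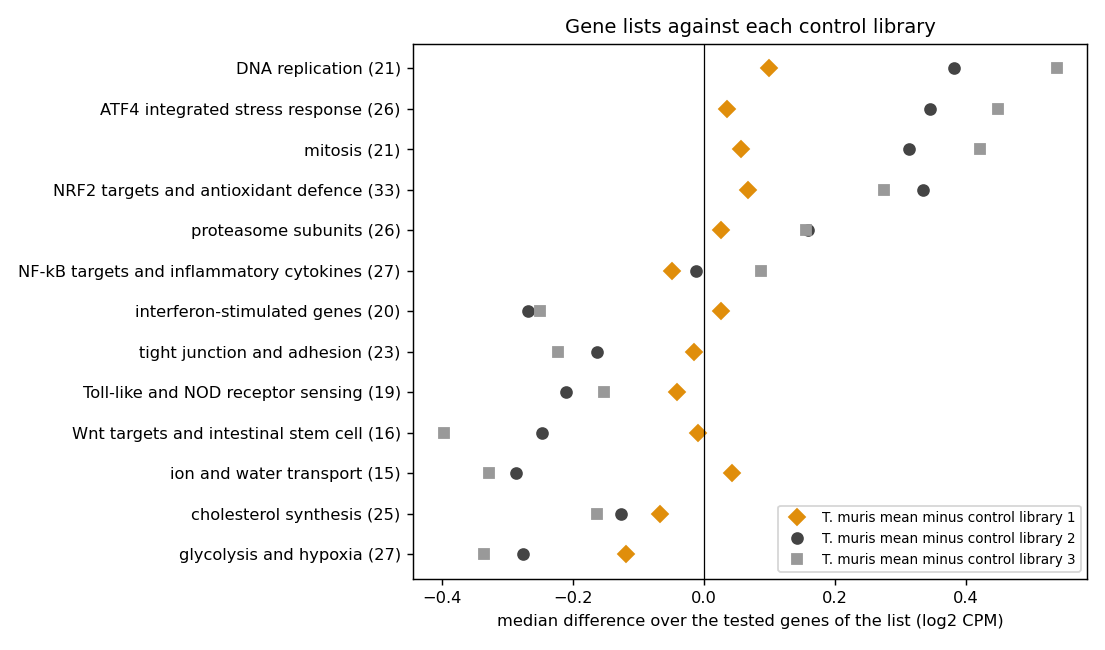
Median difference in log2 CPM between the mean of the 3 antigen libraries and each control library, over the tested genes of 13 lists (number of genes in parentheses). Diamonds for control library 1 lie nearest 0 in each list but the NF-kB list, where control library 2 does, from -0.12 for glycolysis and hypoxia to 0.10 for DNA replication.

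Called genes differed in transcript length. Genes called lower had a median transcript of 4314 bases and 52.95% GC, genes called higher 2947 bases and 47.3%, and all genes tested 2993 bases and 49.7%. Among the 2967 genes with the longest transcripts, 7.38% were called lower and 2.06% higher. Among the 2968 with the shortest these shares were 1.04% and 1.85%. Over the longest the median log2 CPM difference was -0.01 from control library 1, -0.07 from control library 2 and -0.04 from control library 3. The part of transcript length in the calls was not tested.

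After PTSO, the genes called without it had smaller fold changes, mostly of the same sign. The second comparison, PTSO plus antigens against PTSO, shares no library with the first. EdgeR's quasi-likelihood test called 0 of 15267 genes (0%), with 932 (6.1%) at an unadjusted p under 0.05, and DESeq2 called 15. Leaving out control library 1 gave 36 calls among 15718 genes tested. Control libraries enter this comparison only through the filter on low counts, the scaling and the estimate of the spread. Of the 969 genes, 876 (90.4%) had the same sign in both comparisons, against 63.0% of all genes. At an unadjusted p under 0.05 in edgeR's test, 167 of the 969 had the same sign and 3 the opposite sign. Over all 15267 genes these numbers were 750 and 182. With PTSO, the median size was 0.094 for the 969, near the 0.088 of all genes tested. Without PTSO it was 0.30 for the 969, in the comparison in which they were called and which therefore favours large values. Across these genes, which are not independent, Pearson's r between the log2 fold changes was 0.40 (0.35 among the higher and -0.17 among the lower).

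The genes named next had among the smallest p in the second comparison among the 969 and were picked after their values were seen. Txnip, an inhibitor of thioredoxin and of glucose uptake, measured 37.4, 33.8 and 30.1 CPM in control libraries 1 to 3 and 48.3, 48.5 and 44.99 CPM in antigen libraries 1 to 3 (log2 fold change 0.49, SE 0.08, adjusted p = 0.0104). With PTSO, Txnip measured 38.5, 37.5 and 36.6 CPM in PTSO libraries 1 to 3 and 54.9, 46.7 and 47.3 CPM in PTSO plus antigen libraries 1 to 3 (log2 fold change 0.40, SE 0.08, unadjusted p = 8.7e-05, adjusted p = 0.375), again without overlap. Slc4a4 had a fall of 0.44 without PTSO. With PTSO, Slc4a4 measured 86.8, 87.99 and 92.4 CPM in PTSO libraries 1 to 3 and 64.8, 67.8 and 73.7 CPM in PTSO plus antigen libraries 1 to 3 (log2 fold change -0.37, SE 0.08, unadjusted p = 0.0001, adjusted p = 0.375). Likewise with PTSO, Cp measured 88.3, 80.7 and 81.7 CPM in PTSO libraries 1 to 3 and 50.7, 58.3 and 63.6 CPM in PTSO plus antigen libraries 1 to 3 (log2 fold change -0.54, SE 0.11, unadjusted p = 0.00022, adjusted p = 0.375). Tet2, an enzyme that oxidises 5-methylcytosine, measured 20.4, 27.6 and 23.99 CPM in control libraries 1 to 3 and 14.99, 14.8 and 14.2 CPM in antigen libraries 1 to 3 (log2 fold change -0.71, SE 0.11, adjusted p = 0.0104). With PTSO its log2 fold change was -0.48 (unadjusted p = 0.00037). Atp2b4, Hk2, Ddit4, Lgals3 and Rhob were -0.67, -0.24, -0.25, -0.27 and -0.19 with PTSO and -0.96, -0.28, -0.31, -0.34 and -0.24 without. The calls of the 8 genes Txnip, Slc4a4, Cp, Tet2, Hk2, Ddit4, Lgals3 and Rhob in the antigens against control comparison rested on control library 2 in 8, on control library 3 in 1 and on the pair of them in 8, counted as calls lost when those libraries were left out. For control library 1 the number was 0, for antigen libraries 1 to 3 it was 8, 7 and 2, and for single libraries with PTSO 0.

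**Figure D4:**
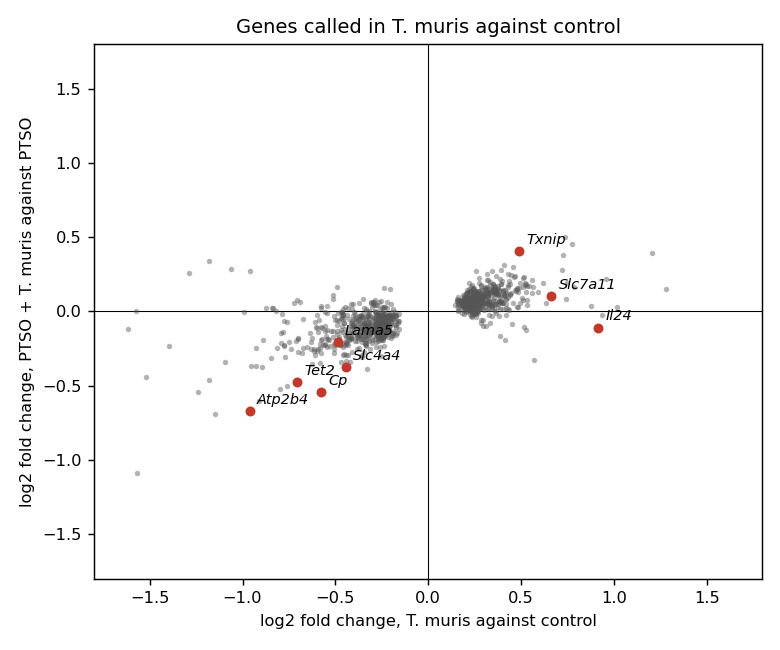
Log2 fold change of the antigens without PTSO (horizontal axis) against that after PTSO (vertical axis) for genes called in the first comparison, with 8 genes named; 964 of the 969 lie within the axes and 5 outside. The median size is 0.09 on the vertical and 0.30 on the horizontal axis, and 876 of the 969 have the same sign on both axes.

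The difference between the antigen effects with and without PTSO was tested as an interaction. EdgeR's quasi-likelihood test called 0 of 15267 genes (0%), with 1181 at an unadjusted p under 0.05, 429 of them among the 969. The interaction contains the antigens against control difference by which the 969 were called, which favours low p-values among them. DESeq2 called 4. The number of edgeR calls depended on control library 1, since 1279 genes were called without it and 0 or 1 without control library 2, 3 or both. The named genes with the smallest p were Tmem150a, Cdkn2a, Il24 and Tfrc. Il24, raised by antigens in vehicle-treated cells, measured 5.61, 6.04 and 6.86 CPM with PTSO and 5.22, 6.45 and 5.44 CPM with both (interaction -1.02, SE 0.25, unadjusted p = 0.0005, adjusted p = 0.609). PTSO libraries of Il24 were already at the level of the antigen libraries. Tfrc, the transferrin receptor, measured 622, 524 and 530.5 CPM in the controls and 740.3, 694 and 717 CPM with antigens and 655, 681 and 675 CPM with PTSO and 726, 651 and 639.7 CPM with both (interaction -0.36, SE 0.08, unadjusted p = 0.00051, adjusted p = 0.609). Cdkn2a measured 103, 98.9 and 103 CPM with PTSO and 106, 115 and 118 CPM with both (interaction 0.36, SE 0.08, unadjusted p = 0.00034, adjusted p = 0.609). Tmem150a measured 0.314, 0.426 and 0.131 CPM with PTSO and 2.85, 2.14 and 6.25 CPM with both (interaction 6.09, SE 0.95, unadjusted p = 6.8e-05, adjusted p = 0.609), so it was low with antigens or PTSO alone and higher, with a wide spread, with both.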

How the data were processed

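CMT-93 RNA was sequenced in 12 libraries, 3 per group. The authors deposited raw read counts per Ensembl gene, whole numbers used as deposited. Per the submitters' processing notes, HISAT, DESeq2 and mm39 were used; their roles, the counting program and the annotation are unstated here, as is the strand setting, so overlapping genes on opposite strands cannot be told apart. Of 55137 identifiers, 53620 had a reference symbol. RefSeq promoter sequences are from GRCm38.p6, an earlier build than mm39.

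Genes were filtered with filterByExpr of edgeR 4.0.16, which kept 15267 genes with 99.9% of counts, 413 of them unannotated loci. A model with one coefficient per group over all 12 libraries (TMM, 8 residual degrees of freedom) gave the robust quasi-likelihood F-test. P-values were adjusted by Benjamini-Hochberg over all tested genes and called at under 0.05. The SE is the log2 fold change divided by the root of F. Library-level log2 CPM used a prior count of 0.5. The model was tested on simulated data.

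Named were the 10 largest rises and falls among called genes without overlap whose average log2 CPM was 1 or more, genes also called without control libraries 2 and 3, up to 4 genes by p per list with a call, and the 4 smallest interaction p; unannotated and predicted genes were not named. Other called list members are named with their lists. Genes, lists and this comparison were chosen with earlier results of these data known. No gene was called in both antigen comparisons. Some called list members are counted and not reported here by name. Alternatives were each library left out, other scalings, filters and dispersions, a replicate block, DESeq2 1.42.0 and limma 3.58.1 voom with sample weights.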

Additional observations from a re-analysis of the deposited data

How the results depend on the processing

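For antigens against control (969 calls with all 12 libraries), leaving out 1 library gave 2 to 4044 calls. DESeq2 gave 1960, no filter on low counts 2063 and limma voom with sample quality weights 4955, with weights of 0.234, 2.84 and 0.565 for control libraries 1 to 3. Leaving out control libraries 2 and 3 gave 8, or 42 on the remaining 4 libraries of both groups, 16 of them among the 969, a fit in which the lone control is assumed to vary like the antigen libraries. The 6 compared libraries alone gave 1, and 1 to 4172 when 1 of these was also left out, a setting chosen after seeing the data. RLE scaling, library totals, a mean count of at least 10 and a dispersion without robust estimation gave 967, 1024, 1001 and 1036. For PTSO plus antigens against PTSO (0 calls), DESeq2 gave 15, no filter 42, no control libraries 2 and 3 gave 80, and leaving out 1 library 0 to 36. For the interaction (0 calls), these gave 4, 45, 1 and 0 to 1279. The cause was not tested. No named gene changed sign past the threshold under any of the 30 settings; over 127 named genes, direction and side of the threshold stayed in 1999 results, the call was lost in 1791 and gained in 20.

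Deviations of same-numbered control and antigen libraries correlated at -0.0353, 1.92e-05 and -0.00655, and those of unlike number at -0.0287 to 0.0385. With the replicate block, 1246 genes were called over 12 libraries, against 969 without it. Over the 6 compared libraries the block gave 399, against 1 without it. For the antigens after PTSO and the interaction it gave 0 and 1. Whether replicate numbers pair the libraries is not settled by these values. Tmem150a was at 7 and 8 counts in 2 of the 3 antigen libraries, which limits the precision of its fold change.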

Other observations

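Without control libraries 2 and 3, 4 genes were called that had not been called with all controls. The 3 annotated ones were singled out after their values were seen. Nfya, a subunit of the CCAAT-binding factor NF-Y, measured 16.2, 10.4 and 3.15 CPM in control libraries 1 to 3 and 3.10, 4.10 and 3.19 CPM in antigen libraries 1 to 3, so control library 1 was the highest and control library 3 lay among the antigen libraries. Its adjusted p was 0.00194 without control libraries 2 and 3, 0.118 with all 12 libraries and from 8.32e-10 to 0.485 over 30 settings. Eppk1, the cytoskeletal linker epiplakin, measured 24.7, 22.4 and 14.5 CPM in control libraries 1 to 3 and 15.3, 13.3 and 14.4 CPM in antigen libraries 1 to 3. Dync1h1, the heavy chain of cytoplasmic dynein, measured 400.2, 441 and 308 CPM in control libraries 1 to 3 and 309, 306 and 319 CPM in antigen libraries 1 to 3. In both, control libraries 1 and 2 were above and control library 3 near the antigen libraries, which is another order of the controls than in most genes called with all 12 libraries.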
